A study of Mus musculus with 18 samples.

Results

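The genes described here are 10 genes known for their use in monocytes, macrophages and dendritic cells: F13a1, Lyz2, Mpeg1, Ly86, Ms4a6c, Ccr2, Cx3cr1, Clec9a, Xcr1 and Siglech. They were taken by mouse gene symbol, and all 10 were found among the 37620 gene IDs of the series. The series measured polyadenylated RNA of mice that carry a histone H3 transgene which doxycycline switches on. The transgene encoded H3 with lysine 36 replaced by methionine (K36M), H3 with lysine 9 replaced by methionine (K9M), or, in the controls, the unchanged histone (WT). Each genotype was sampled in bone marrow, intestine and testes, which made 9 groups of 2 libraries, each from a different mouse. All mice were a C57B6/129 hybrid, were 6 to 8 weeks old when used, and received 2 mg/ml doxycycline in the drinking water, so transgene induction and the drug were shared by the mutants and the controls. The bone marrow cells were sorted as lineage-negative and cKit-positive, which selects blood stem and progenitor cells and removes most mature monocytes and dendritic cells. The labels name neither the promoter that drives the transgene nor the length of the treatment.

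Monocytes and dendritic cells arise in the bone marrow from progenitors that also give rise to granulocytes, and the transcription factors PU.1 and Irf8 are known to direct their genes. Macrophages of the testis lie between the tubules and on their walls, and macrophages and dendritic cells of the gut lie below the epithelium. Methionine at lysine 36 or lysine 9 of histone H3 is known to block the methyltransferases that act on that residue.

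The promoters of 5 genes are shown. Those of F13a1, Lyz2 and Ms4a6c were picked from the 8 genes lower in K36M bone marrow because they hold the searched ETS letters. Those of Cx3cr1, which was higher there, and Mpeg1, which was lower there and higher in K36M testes, are shown because these genes went opposite ways in the 2 tissues. Each window holds 250 bases before and 50 bases after an annotated start, from RefSeq on the build GRCm38.p6, in the direction of the gene. Capitals mark the PU.1-type ETS letters AGGAAGT, or ACTTCCT where the match lies on the other strand.
F13a1 promoter, chr13:37049164-37049463, - strand: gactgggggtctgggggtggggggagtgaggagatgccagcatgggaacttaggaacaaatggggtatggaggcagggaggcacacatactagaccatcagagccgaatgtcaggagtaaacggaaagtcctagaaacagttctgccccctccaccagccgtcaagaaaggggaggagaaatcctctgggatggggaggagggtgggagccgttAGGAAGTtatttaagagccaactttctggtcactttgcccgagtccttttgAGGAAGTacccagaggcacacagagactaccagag
Lyz2 promoter, chr10:117282223-117282522, - strand: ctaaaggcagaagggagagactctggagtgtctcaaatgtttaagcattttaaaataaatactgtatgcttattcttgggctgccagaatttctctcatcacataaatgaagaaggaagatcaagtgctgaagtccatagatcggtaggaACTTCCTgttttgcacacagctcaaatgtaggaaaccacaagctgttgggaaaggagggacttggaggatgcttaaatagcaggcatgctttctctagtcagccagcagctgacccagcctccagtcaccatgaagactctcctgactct
Ms4a6c promoter, chr19:11469118-11469417, + strand: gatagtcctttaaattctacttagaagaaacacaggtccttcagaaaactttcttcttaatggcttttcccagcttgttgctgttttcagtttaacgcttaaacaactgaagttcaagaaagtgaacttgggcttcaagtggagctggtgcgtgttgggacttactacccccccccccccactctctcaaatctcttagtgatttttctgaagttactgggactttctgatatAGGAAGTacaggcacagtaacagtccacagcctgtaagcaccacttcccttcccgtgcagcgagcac
Mpeg1 promoter, chr19:12460520-12460819, + strand: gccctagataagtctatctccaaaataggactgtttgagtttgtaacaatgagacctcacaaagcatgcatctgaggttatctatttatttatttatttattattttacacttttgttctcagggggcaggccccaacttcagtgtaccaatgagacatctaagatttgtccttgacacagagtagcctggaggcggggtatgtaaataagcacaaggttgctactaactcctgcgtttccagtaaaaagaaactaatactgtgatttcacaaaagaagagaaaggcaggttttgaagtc
Cx3cr1 promoter, chr9:120068247-120068546, - strand: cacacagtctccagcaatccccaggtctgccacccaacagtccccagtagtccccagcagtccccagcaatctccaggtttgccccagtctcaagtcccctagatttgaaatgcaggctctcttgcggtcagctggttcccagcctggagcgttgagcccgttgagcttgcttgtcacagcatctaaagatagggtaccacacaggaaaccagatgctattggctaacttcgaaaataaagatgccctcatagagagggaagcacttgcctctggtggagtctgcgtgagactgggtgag

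All 10 genes had a RefSeq promoter, in 11 windows, since F13a1 had 2. AGGAAGT was searched on both strands and lay in 3 of the 11 windows, the first of F13a1 (2 matches), that of Lyz2 (1) and that of Ms4a6c (1), against 9.35% of 32851 windows of this length genome-wide. The ETS-IRF composite letters GGAANNGAAA lay in none of the 11 windows and in 2.72% of all windows. The interferon-type letters GAAANNGAAA, which can overlap that composite, also lay in none of the 11 windows and in 3.44% of all windows. A match is a run of letters, and binding was not measured.

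Library depth, as counts in genes, was 13396303 to 21417915. The labelled tissues carried their defining transcripts: Kit, the sorted receptor, lay at 294 to 500 CPM in the 6 bone marrow libraries, the epithelial Vil1 at 1991 to 3956 CPM in intestine and the sperm protamine Prm1 at 2238 to 7467 CPM in testes. CPM is the count of a gene per 1e6 counts in genes, scaled by edgeR's TMM factors within a tissue, and CPM per kb divides by exon length a CPM scaled by TMM factors over all 18 libraries. One WT intestine library, WT.1476, stood apart by 45.8 CPM of Prm1, against 0.849 to 5.75 CPM in the 5 other intestine libraries. Each of 6 mice gave both intestine and testes, while the bone marrow was taken from 6 further mice. Bone marrow libraries held 42370 to 70839 counts of Xist, the transcript of the inactive X chromosome, against at most 58 in the other tissues. Tissue, set of mice and sex therefore cannot be told apart in comparisons of bone marrow with another tissue. The transgene itself was not analysed here, and whether its reads reach the endogenous H3.3 genes H3f3a and H3f3b was not tested. In 3 comparisons against WT one of them passed edgeR's test, H3f3b in K36M bone marrow (log2 0.29 ± 0.06 SE, adjusted p = 0.00627) and K36M testes (-0.705 ± 0.17, 0.016) and H3f3a in K9M bone marrow (-0.59 ± 0.09, 0.0321).

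All 10 genes had their highest group mean in bone marrow. Per kilobase of exon, Lyz2, which encodes the lysozyme of myeloid cells, led in WT bone marrow with 156 and 116 CPM per kb. F13a1, the catalytic subunit of coagulation factor XIII, followed with 91.5 and 66.1 CPM per kb, Ms4a6c, a four-pass membrane protein gene, with 77.3 and 48.5, and Mpeg1, the pore-forming perforin-2 of macrophages, with 69.9 and 41.2. These 3 ranges overlapped, so their order was not separated. The chemokine receptor gene Ccr2 had 19.8 and 15.2 CPM per kb, and Ly86, which encodes the MD-1 partner of the receptor RP105, had 12.1 and 8.91. The fractalkine receptor gene Cx3cr1 had 4.46 and 3.32 CPM per kb. The dendritic cell genes stood at the bottom, with 1.99 and 1.65 CPM per kb for Clec9a, 0.599 and 0.823 for Siglech and 0.168 and 0.328 for Xcr1.

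In the tests across tissues, which used all 18 libraries, 10 of 10 genes were higher in WT bone marrow than in WT intestine by edgeR's quasi-likelihood F test, Benjamini-Hochberg adjusted, where 64.1% of 21257 genes passed in either direction and 29.4% were higher. In intestine 8 of the 10 had too few counts to be tested by themselves and entered this fit through other tissues. Against WT testes 9 of 10 were higher in WT bone marrow, where 82.1% of genes passed and 33.6% were higher. Among these, Clec9a and Siglech had too few counts to be tested within testes and entered this fit through bone marrow. All genes had a median log2 difference of -0.67 between WT bone marrow and WT testes. The exception was Xcr1, the receptor of the chemokine Xcl1 on cross-presenting dendritic cells, at 1.29 ± 0.63 (SE, adjusted p = 0.0743). Lyz2 was 6.45 ± 0.32 higher on the log2 scale in WT bone marrow than in WT intestine, and 3.67 ± 0.26 higher than in WT testes. Cx3cr1 differed least among those that passed, with WT bone marrow 2.08 ± 0.38 above WT testes on the log2 scale.

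F13a1, Clec9a and Xcr1 had at most 3 counts over both WT intestine libraries, so their tissue ratio was taken from counts alone. F13a1 had 30147 counts in WT bone marrow and 1 in WT intestine, a ratio per gene count of 24600 (exact 95% counting interval 4410 to 972000). Clec9a, a receptor for dying cells on dendritic cells, had 340 counts in WT bone marrow and 3 in WT intestine, a ratio of 92.5 (31.4 to 451). Xcr1 had 63 counts in WT bone marrow and 0 in WT intestine. Its ratio per gene count was at least 17.1, with 3 counts over the group as the floor. The intervals cover counting error only. These ratios were not TMM-scaled, unlike the tests across tissues. The TMM-scaled fit of all 18 libraries gave 11220-fold for F13a1, 46.4-fold for Clec9a and 173-fold for Xcr1. Between the 2 solid tissues, 7 of the 8 genes tested were lower in WT intestine than in WT testes, where 82.9% of 20253 genes passed and 47.6% were lower. Only Mpeg1 and Lyz2 of these 8 had enough counts to be tested within intestine. The others entered this fit through testes, so their place below testes was partly set by the filter. Ly86 did not pass, at -1.27 ± 0.83 (edgeR adjusted p = 0.174), and Ccr2, at -1.79 ± 0.62 (0.019), did not with the mouse as a replicate block (-1.79 ± 0.78, 0.067).

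**Figure D1:**
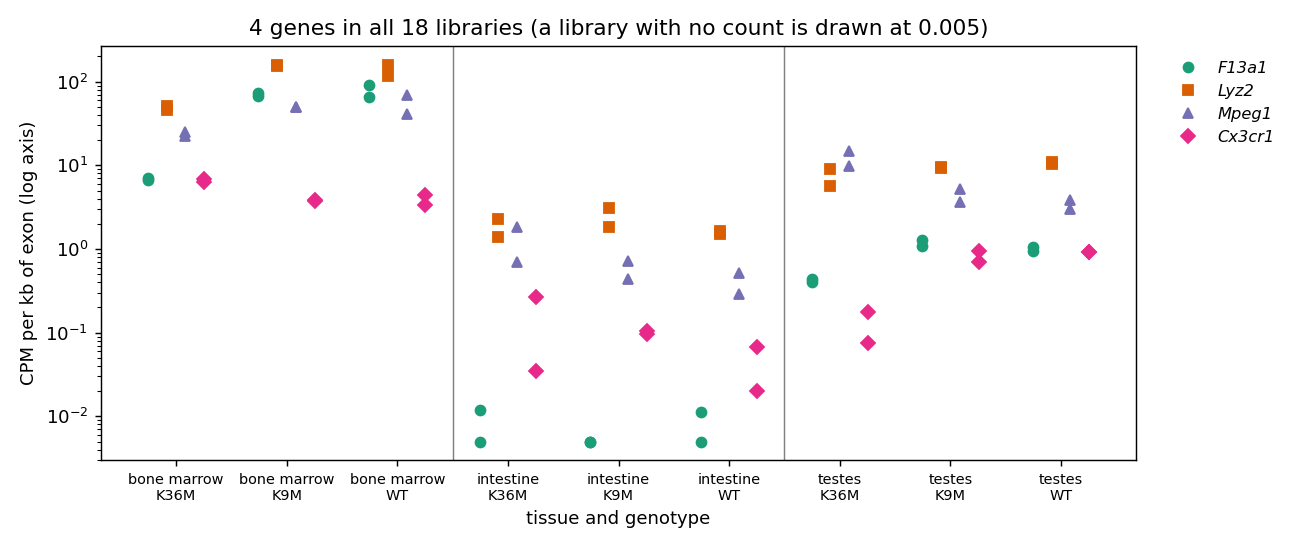
Levels of F13a1, Lyz2, Mpeg1 and Cx3cr1 in CPM per kb of exon (log axis) in each of the 18 libraries, by tissue and genotype, with 1 point per library. Bone marrow holds the highest values of all 4 genes, F13a1 is near 0 in intestine, and within testes Mpeg1 is highest in K36M while Cx3cr1 is lowest there.

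In K36M bone marrow progenitors, 9 of the 10 genes passed the test against WT, 8 of them lower and 1, Cx3cr1, higher. Of all 14604 genes tested, 48% passed, 24.6% lower and 23.5% higher. The median log2 fold change was -1.90 over the 10 genes and -0.02 over all genes. Both K36M libraries lay below both WT libraries for 9 of the 10 genes and above them for Cx3cr1, patterns that 38.7% and 37.3% of all genes showed. In bulk samples, fewer cells of a type and less RNA per cell cannot be told apart.

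Of the genes for secreted and killing proteins, F13a1 had 60.8 and 59.0 CPM in K36M bone marrow, against 813 and 589 CPM in WT bone marrow. The K36M libraries were far below WT and close to each other. The log2 fold change was -3.55 ± 0.17 (SE, edgeR's quasi-likelihood F test, Benjamini-Hochberg adjusted, adjusted p = 6.44e-05), an 11.7-fold fall.

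Lyz2 had 76.5 and 86.9 CPM in K36M bone marrow, against 272 and 202 CPM in WT. All K36M values lay below all WT values, and the fold change was -1.54 ± 0.14 on the log2 scale (edgeR adjusted p = 0.000353). Lyz1, the adjacent near-copy of Lyz2, had at most 3 counts in any bone marrow library, so Lyz1 transcripts could add little to the Lyz2 value there. Mpeg1 had 126 and 141 CPM in K36M bone marrow, against 400 and 236 CPM in WT. The groups did not overlap, although the WT mice were as far apart for Mpeg1 as only 4.79% of genes. Its log2 fold change was -1.25 ± 0.26 (edgeR adjusted p = 0.0159), and the call was lost without K36M mouse 1310 (adjusted p = 0.0899), without K36M mouse 1312 (0.0745) or with no filter on low counts (0.0779).

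Of the surface proteins, Ms4a6c had 51.7 and 49.7 CPM in K36M bone marrow, against 209 and 131 CPM in WT. The groups were well separated, at -1.75 ± 0.22 on the log2 scale (edgeR adjusted p = 0.00208). Ms4a6b and Ms4a6d are close relatives of Ms4a6c, so reads the genes share may have been divided between them or dropped. Ly86 had 18.6 and 19.7 CPM in K36M bone marrow, against 58.0 and 42.8 CPM in WT, without overlap. Its log2 fold change was -1.40 ± 0.14 (edgeR adjusted p = 0.000312). F13a1 and Ly86 are adjacent on chromosome 13. Fars2 and Lyrm4, which lie on the far side of F13a1, had log2 fold changes of -0.28 ± 0.10 (edgeR adjusted p = 0.0545) and -0.37 ± 0.18 (0.126) and did not pass.

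The chemokine receptors went different ways. Ccr2, through which monocytes leave the marrow, had 35.4 and 32.2 CPM in K36M bone marrow, against 176 and 136 CPM in WT. The groups did not overlap, but the log2 fold change of -2.21 ± 0.74 did not pass (edgeR adjusted p = 0.0897). The fit shares its spread with the K9M mice, which differed widely for this gene. Ccr2 passed without K9M mouse 1362 (adjusted p = 0.000557), without K9M mouse 1363 (0.000528), with K36M and WT fitted alone (0.000726) and under DESeq2 (0.00479).

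Cx3cr1, the receptor of fractalkine, which is known to be highest in patrolling monocytes, had 36.5 and 39.9 CPM in K36M bone marrow, against 26.5 and 19.8 CPM in WT. Both K36M values lay above both WT values. The rise of 0.72 ± 0.14 on the log2 scale passed (edgeR adjusted p = 0.00442), but it did not with all 18 libraries in 1 fit (adjusted p = 0.183). Its neighbours on chromosome 9, Wdr48 and Gorasp1, had log2 fold changes of -0.04 ± 0.07 and -0.14 ± 0.10 in the same comparison and did not pass.

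The genes of dendritic cells were low in K36M bone marrow at low counts. Clec9a had 0.297 and 0.277 CPM in K36M bone marrow, 11 counts over both libraries, against 8.63 and 7.17 CPM in WT. It showed the largest fall among the 10 genes, at -4.75 ± 0.32 on the log2 scale (edgeR adjusted p = 5.39e-05). Siglech, a surface lectin of plasmacytoid dendritic cells, had 0.744 and 0.776 CPM in K36M bone marrow, against 2.67 and 3.68 CPM in WT. The groups did not overlap and the change was -2.06 ± 0.42 on the log2 scale (edgeR adjusted p = 0.00508). Xcr1 had 0.198 and 0.111 CPM in K36M bone marrow, against 0.985 and 1.93 CPM in WT. The 6 counts in K36M stood against 63 in WT, and the fall of 3.17 ± 0.72 on the log2 scale (edgeR adjusted p = 0.00792) was no longer called without K36M mouse 1312 (adjusted p = 0.0692).

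**Figure D2:**
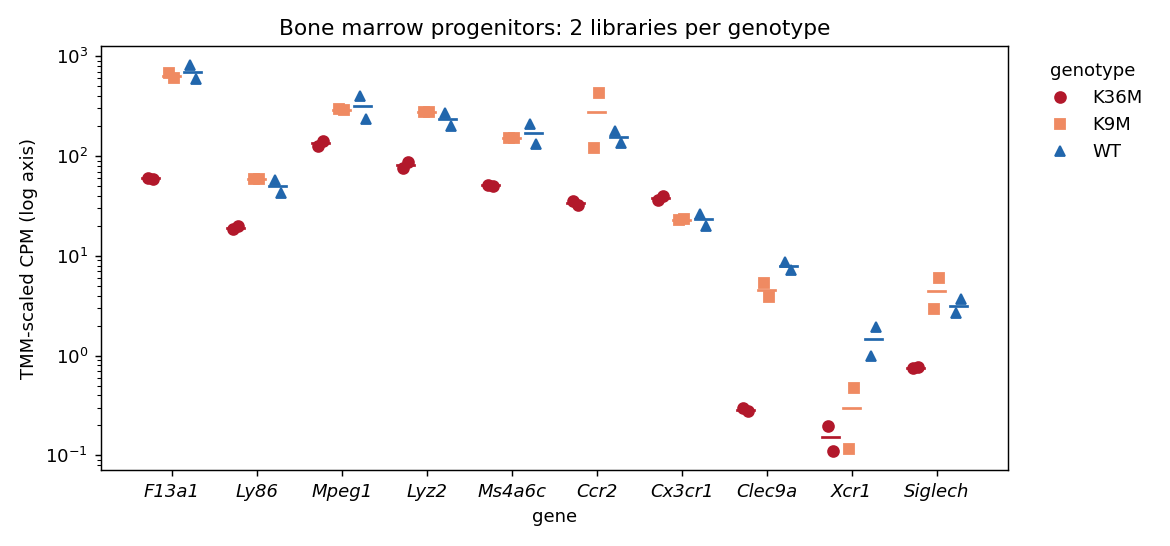
TMM-scaled CPM (log axis) of the 10 genes in bone marrow, with K36M, K9M and WT side by side, 1 point per library and a line at the mean of 2. The K36M points lie below the WT points for every gene except Cx3cr1, where they lie above. Both K9M points lie below both WT points for Clec9a and Xcr1 and above them for Ly86 and Lyz2. The K9M mice are apart for Xcr1, Ccr2 and Siglech.

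Wider lists, written from general knowledge with earlier results of these data known, held other genes known from the same cells. Which cells expressed them here was not tested. For scale, 24.6% of all genes tested fell in K36M bone marrow and 23.5% rose. Of 29 tested monocyte and macrophage genes, 20 fell and 1 rose in K36M bone marrow, with a median log2 fold change of -1.20. The 3 with the smallest adjusted p were Csf2ra, a chain of the GM-CSF receptor, at -2.27 ± 0.11, the endotoxin receptor gene Tlr4 at -2.00 ± 0.15 and Klf4, a transcription factor of monocytes, at -3.25 ± 0.24. Of 20 tested conventional dendritic cell genes, 11 fell and 1 rose, at a median of -0.97. The lectin genes Mgl2 and Clec10a changed by -4.21 ± 0.16 and -3.78 ± 0.30. Irf8, the transcription factor of monocytes and dendritic cells, had 81.0 and 70.2 CPM in K36M bone marrow, against 403 and 281 CPM in WT, a change of -2.18 ± 0.18 (edgeR adjusted p = 0.000464). Of 16 plasmacytoid dendritic cell genes, 8 fell and 1 rose, at a median of -0.73. Runx2 and Cd300c changed by -0.76 ± 0.12 and -2.71 ± 0.47, and Upb1 had 1 and 1 counts in K36M, against 40 and 25 in WT. The genes that rose, named after their values were seen, were Emilin2 (1.23 ± 0.12), Zbtb46 (0.84 ± 0.23) and Cox6a2 (1.60 ± 0.34).

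Of the ligands and partners of the 10 genes, 4 were tested in bone marrow and 1 fell, Tyrobp, the signalling adaptor that Siglech is known to pair with, at -0.63 ± 0.17 (edgeR adjusted p = 0.021). Among all genes tested in this comparison, 24.6% fell and 23.5% rose. Cd180, which encodes the RP105 receptor that Ly86 serves, had -0.34 ± 0.38, Cx3cl1, the ligand of Cx3cr1, had 0.23 ± 0.44 and Ly96 had 0.07 ± 0.34, and none of these passed. Other cell types moved in the same libraries. The 12 neutrophil granule genes summed to 3467 to 4805 CPM in K36M bone marrow, against 14280 to 18190 CPM in WT, with 9 lower. The 12 erythroid genes summed to 3873 to 4215 CPM in K36M, against 1585 to 2704 CPM in WT, with 8 higher. Kit had -0.60 ± 0.06. The part of these shifts in the changes of the 10 genes was not tested.

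In K9M bone marrow, 0 of the 10 genes passed against WT by edgeR's quasi-likelihood F test, Benjamini-Hochberg adjusted, where 1.01% of 14604 genes passed. Clec9a and Xcr1 had an unadjusted p under 0.05, and DESeq2 and limma-voom called 0 as well. Clec9a had 5.29 and 3.87 CPM in K9M bone marrow, against 8.63 and 7.17 CPM in WT, and Xcr1 had 0.115 and 0.478 CPM in K9M, against 0.985 and 1.93 CPM in WT. Both genes lay below WT without overlap, at log2 differences of -0.79 ± 0.23 (edgeR adjusted p = 0.195) and -2.22 ± 0.64 (0.187). Ly86 and Lyz2 lay above WT without overlap, and the other 6 genes overlapped. Ly86 had 58.9 and 59.0 CPM in K9M, against 58.0 and 42.8 CPM in WT. Lyz2 had 275 and 279 CPM in K9M, against 272 and 202 CPM in WT. The share of all genes without overlap in this comparison is not given here. F13a1, at 672 and 607 CPM in K9M, and Cx3cr1, at 22.7 and 23.2 CPM, lay inside the WT ranges. Leaving out a library brought calls of 1 or 2 genes: Ly86 (0.46) and Lyz2 (0.45) on the log2 scale without mouse WT.1262, Mpeg1 (-0.45) and Ms4a6c (-0.46) without mouse WT.1266, and Ccr2 (1.46) without K9M mouse 1362. In the wider lists, 0 rose and 2 fell of 29 monocyte and macrophage genes, Klf4 (-1.57 ± 0.22) and Emilin2 (-1.12 ± 0.12). Of 20 conventional dendritic cell genes 0 rose and 2 fell, Tlr3 (-2.70 ± 0.35) and Naaa (-1.88 ± 0.22), and of 16 plasmacytoid dendritic cell genes 0 passed.

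The K9M mice disagreed on Ccr2. It had 120 CPM in mouse 1362 and 429 CPM in mouse 1363, against 176 and 136 CPM in WT, and only 0.281% of genes were as far apart between these K9M mice. Xcr1, Ccr1, Ccr3 and Ccr2 lie in this order in 1 cluster of receptor genes on chromosome 9, with Ccr1l1 between Ccr1 and Ccr3. Ccr1, named after its values were seen, had 5.18 and 66.0 CPM in the same K9M mice, against 7.79 and 5.10 CPM in WT, so mouse 1363 was 12.8-fold above mouse 1362. The ratio of mouse 1363 to mouse 1362 was 3.58 for Ccr2, 4.16 for Xcr1 at low counts and 0.665 for Ccr3, which had at most 8 counts. The difference lies between 2 single mice and has no replicate.

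**Figure D3:**
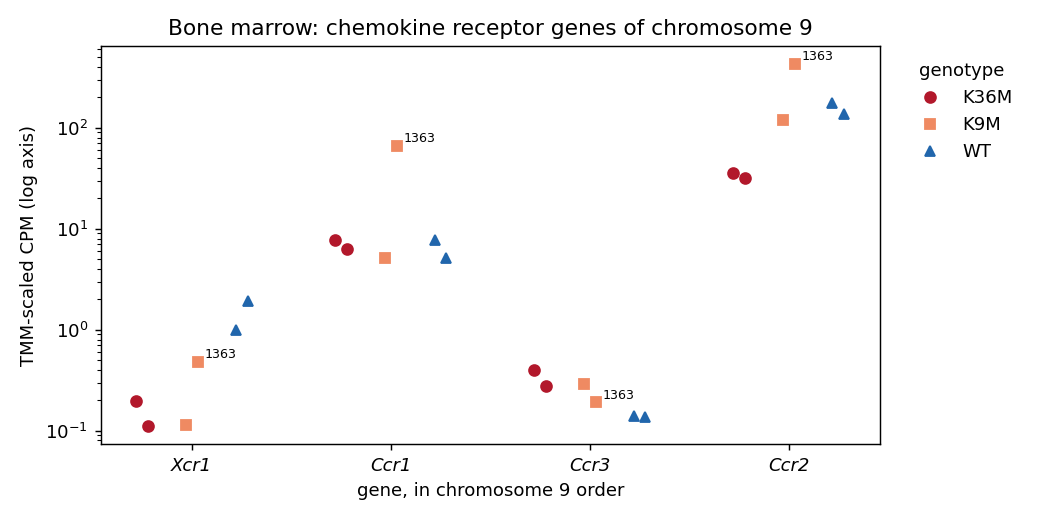
TMM-scaled CPM (log axis) in bone marrow of 4 receptor genes in their order on chromosome 9, with 1 point per library and K9M mouse 1363 marked. Mouse 1363 lies far above all other libraries for Ccr1 and Ccr2 and among them for Ccr3.

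Set directly against K9M, K36M bone marrow again had 9 of the 10 genes past the threshold, 8 lower and Cx3cr1 higher, where 53.8% of all genes passed, 27.8% lower and 26% higher. These values share the K36M libraries with the comparison against WT. F13a1 changed by -3.42 ± 0.17, Clec9a by -3.96 ± 0.33 and Siglech by -2.55 ± 0.42 on the log2 scale. Cx3cr1 was 0.73 ± 0.14 higher in K36M (edgeR adjusted p = 0.00349), but did not pass with all 18 libraries in 1 fit (adjusted p = 0.145). Ccr2 passed here, at -3.02 ± 0.76 (edgeR adjusted p = 0.0418), but not when either K36M or either WT mouse was left out (0.119 to 0.187), with K36M and K9M fitted alone (0.114) or with no filter (0.0813). Mpeg1 passed at -1.13 ± 0.26 (edgeR adjusted p = 0.0191) and not without any 1 of the K36M or K9M mice (0.0591 to 0.101). Xcr1 did not pass, at -0.95 ± 0.87 (adjusted p = 0.388), and its groups overlapped.

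In the testes of K36M mice, 5 of the 8 genes tested passed against WT, 4 lower and 1, Mpeg1, higher. Of all 19160 genes tested, 49.5% passed, 23.8% lower and 25.7% higher. The 8 are those with enough counts to be tested, and the other 2, Clec9a with 0 to 3 and Siglech with 3 to 7 counts per library, were not. The median log2 fold change was -1.24 over the 8 and 0.02 over all genes.

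Mpeg1 had 45.0 and 69.0 CPM in K36M testes, against 13.4 and 17.4 CPM in WT testes. Both K36M values were far above both WT values, and the change was 1.88 ± 0.26 on the log2 scale (edgeR's quasi-likelihood F test, Benjamini-Hochberg adjusted, adjusted p = 0.00361). Dtx4, the next gene on chromosome 19, was also higher, by 0.84 ± 0.14 (edgeR adjusted p = 0.00557), and in bone marrow it was lower, at -0.69 ± 0.15 (0.00819), the directions of Mpeg1 in each tissue. Whether reads of one gene reach the count of the other was not tested.

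F13a1 had 3.12 and 2.90 CPM in K36M testes, against 6.60 and 7.46 CPM in WT, with no overlap and a change of -1.23 ± 0.19 on the log2 scale (edgeR adjusted p = 0.00451). Ms4a6c had 1.56 and 1.23 CPM in K36M testes, against 3.36 and 3.33 CPM in WT. That fall of 1.26 ± 0.25 on the log2 scale (edgeR adjusted p = 0.00886) was not called without either WT mouse (0.061 each). Ly86, with 0.300 and 0.247 CPM in K36M and 0.540 and 1.03 CPM in WT, had -1.53 ± 0.50 (edgeR adjusted p = 0.0394). It rested on 9 counts in K36M against 31 in WT, and the call was lost in 8 of its 13 alternatives. DESeq2 (adjusted p = 0.111), limma-voom (0.0523) and the fit of all 18 libraries (0.0859) did not call it. Nor did the fits without either WT mouse, without K36M mouse 1553 or without either K9M mouse. The log2 fold change was -0.97 without mouse WT.1477 and -1.90 without mouse WT.1476.

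Cx3cr1 was the most reduced, with 0.840 and 0.370 CPM in K36M testes, against 4.32 and 4.27 CPM in WT testes. The 20 counts in K36M stood against 163 in WT, and the change was -2.81 ± 0.37 on the log2 scale (edgeR adjusted p = 0.00326). Its neighbours Wdr48 and Gorasp1 were lower as well, at -1.01 ± 0.19 (edgeR adjusted p = 0.0071) and -0.52 ± 0.17 (0.0381). Ccr2 had 0.180 and 0.493 CPM in K36M testes, against 0.900 and 0.797 CPM in WT. Its groups did not overlap, but -1.32 ± 0.52 did not pass (edgeR adjusted p = 0.0713), and it passed without K36M mouse 1553, at -2.21 (0.0191). Lyz2 had 7.92 and 12.9 CPM in K36M testes, against 14.1 and 15.1 CPM in WT. It did not pass at -0.49 ± 0.23 (edgeR adjusted p = 0.112), and without K36M mouse 1553 it did, at -0.91 (4.14e-05). Xcr1 overlapped, at -0.36 ± 0.60 (edgeR adjusted p = 0.64).

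**Figure D4:**
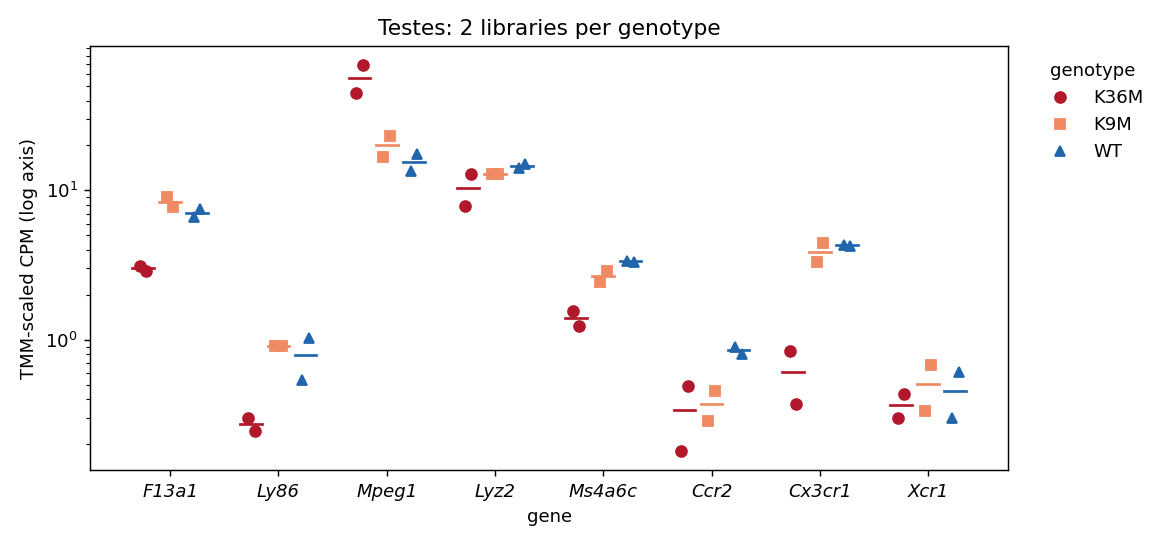
TMM-scaled CPM (log axis) in testes of the 8 genes tested there, with K36M, K9M and WT side by side, 1 point per library and a line at the mean of 2. Mpeg1 stands high in both K36M libraries, and F13a1, Ly86, Ms4a6c and Cx3cr1 stand low in both.

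In the wider lists most calls were higher. In K36M testes 13 of 27 tested monocyte and macrophage genes rose and 2 fell, with a median log2 fold change of 0.74 against 0.02 over all genes. Among those that rose, named after their values were seen, were Cd163 (1.60 ± 0.23), the haemoglobin scavenger receptor of macrophages, Cd68 (1.20 ± 0.25) and the complement gene C1qb (1.14 ± 0.19). The 2 that fell were Fcgr3 (-1.88 ± 0.55) and Adgre1, which encodes F4/80 (-0.83 ± 0.27). Of 20 conventional dendritic cell genes 6 rose and 1 fell, and of 11 plasmacytoid dendritic cell genes 2 rose and 1 fell. Among all genes tested in testes, 25.7% rose and 23.8% fell. Of 5 partners tested, 0 passed by edgeR's test, at an unadjusted p under 0.05 for Ly96 (2.12 ± 0.78, adjusted p = 0.0589). Ptprc, which encodes the leukocyte antigen CD45, had 1.98 and 0.925 CPM in K36M testes, against 1.56 and 0.985 CPM in WT, a difference of 0.21 ± 0.43 that did not pass (adjusted p = 0.701).

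Other cell types moved in the same testes. The 9 Sertoli and Leydig cell genes summed to 1939 to 2606 CPM in K36M testes, against 1093 to 1164 CPM in WT, although 4 rose and 4 fell, at a median log2 fold change of -0.87. The 10 germ cell genes summed to 21480 to 29980 CPM in K36M, against 12650 to 12940 CPM in WT, with 5 higher and 3 lower. The 12 erythroid genes summed to 501.8 to 676.6 CPM in K36M, against 221.1 to 225.7 CPM in WT, with 5 of 11 tested higher and 1 lower. The part of these shifts in the changes of the 10 genes was not tested.

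In K9M testes, 0 of the 8 genes passed against WT by edgeR's quasi-likelihood F test, Benjamini-Hochberg adjusted, where 0.0678% of genes passed. Ccr2 alone had an unadjusted p under 0.05, with 0.287 and 0.452 CPM in K9M testes, against 0.900 and 0.797 CPM in WT, and DESeq2 and limma-voom called 0 genes as well. Mpeg1 had 16.8 and 23.2 CPM in K9M testes, which overlapped the WT values, at 0.37 ± 0.26. Cx3cr1 had 3.30 and 4.48 CPM in K9M testes and F13a1 had 8.99 and 7.69 CPM, at -0.14 ± 0.29 and 0.24 ± 0.17 against WT. Set against K9M, K36M testes had 5 of the 8 genes past the threshold, the same genes as against WT, where 49.2% of all genes passed, 23.9% lower and 25.4% higher. Mpeg1 was 1.51 ± 0.26 higher in K36M, and F13a1, Cx3cr1, Ly86 and Ms4a6c changed by -1.47 ± 0.19, -2.67 ± 0.37, -1.71 ± 0.48 and -0.93 ± 0.25 on the log2 scale. Without K9M mouse 1516 none of the 5 passed, with log2 fold changes of 1.30 for Mpeg1 (edgeR adjusted p = 0.0654), -1.35 for F13a1 (0.0521) and -2.87 for Cx3cr1 (0.0521). The calls of Ms4a6c and Ly86 in this comparison were lost in 7 and 4 of their alternatives.

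**Figure D5:**
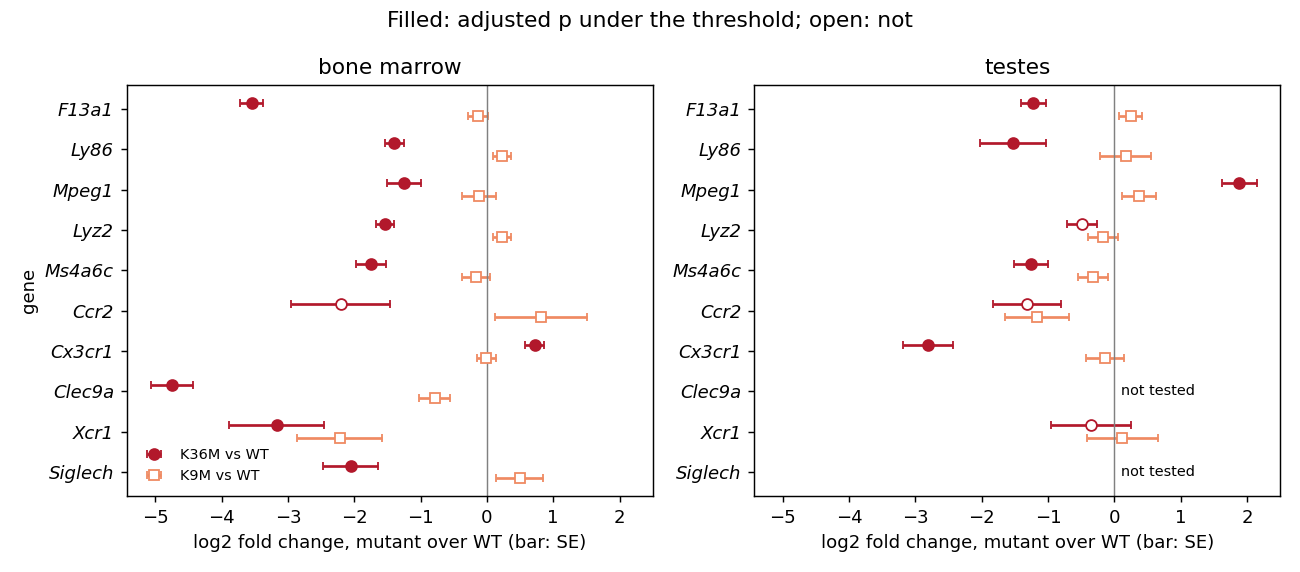
Log2 fold changes of the mutants over WT with SE bars in bone marrow (left) and testes (right), filled where the adjusted p passed the threshold of 0.05. K36M values are below 0 for 9 of the 10 genes in bone marrow and for 7 of the 8 tested in testes, Cx3cr1 and Mpeg1 have opposite signs in the 2 tissues, and no K9M value is filled.

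In intestine, only Mpeg1 and Lyz2 had enough counts to be tested, and the other 8 genes had at most 12 counts in any library. Mpeg1 had 5.90 and 2.31 CPM in K36M intestine, against 1.46 and 0.949 CPM in WT intestine, or 79 and 38 counts against 30 and 14. The groups did not overlap, but the difference of 1.75 ± 0.60 on the log2 scale did not pass (edgeR adjusted p = 0.0793). It passed without K36M mouse 1553 (adjusted p = 0.0249), with no filter on low counts (0.0107) and with all 18 libraries in the fit (0.0325). The library with the highest Mpeg1, K36M mouse 1485, also stood apart in the 8 stroma and endothelium genes, which summed to 34.6 CPM there, against 1.49 to 6.50 CPM in the 5 other intestine libraries, and the 12 neutrophil granule genes summed to 21.5 CPM there and 8.50 CPM in K36M mouse 1553, against 1.42 to 1.55 CPM in WT. Only 1 of the 12 neutrophil granule genes had enough counts to be tested in intestine. The part of these sums in the Mpeg1 value was not tested. Lyz2 had 2.24 and 1.40 CPM in K36M intestine, against 1.26 and 1.63 CPM in WT, and these overlapped at 0.33 ± 0.49 (edgeR adjusted p = 0.658).

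By edgeR's test 0 of 2 genes passed in K36M against WT intestine, where 23.3% of 14246 genes passed and Mpeg1 had an unadjusted p under 0.05. Likewise 0 of 2 passed in K9M against WT, where 0.211% of genes passed, and 0 of 2 in K36M against K9M, where 25.1% passed, with no unadjusted p under 0.05 in either. DESeq2 and limma-voom called 0 in all 3 comparisons. Mpeg1 had 1.35 and 2.29 CPM and Lyz2 had 2.90 and 1.77 CPM in K9M intestine.

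Lyz1, the lysozyme gene of Paneth cells, was the abundant lysozyme in intestine, with 99.5 and 86.4 CPM in K36M, 242 and 205 CPM in K9M and 48.0 and 39.9 CPM in WT. Its log2 fold changes against WT were 1.08 ± 0.18 in K36M (edgeR adjusted p = 0.00978) and 2.35 ± 0.18 in K9M (0.0157). Lyz2 counts came to 0.864% to 4.08% of Lyz1 counts in the 6 intestine libraries, and how many came from Lyz1 transcripts was not tested. With both genes summed the log2 fold change was 1.06 in K36M and 2.32 in K9M, that of Lyz1.

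Of 6 partners tested in intestine, 2 fell in K36M, Xcl1, the ligand of Xcr1 (-5.29 ± 1.07, edgeR adjusted p = 0.0177), and Cx3cl1 (-0.87 ± 0.23, 0.0384). The 2 that rose were F13b, the carrier subunit of factor XIII (6.29 ± 1.03, adjusted p = 0.01), and Lyz1. Of 21 monocyte and macrophage genes 3 rose and 2 fell, of 11 conventional dendritic cell genes 0 rose and 3 fell, and of 12 plasmacytoid dendritic cell genes 1 rose and 1 fell, where 11.7% of all genes rose and 11.7% fell. The 8 T and NK cell genes summed to 30.5 to 42.6 CPM in K36M intestine, against 316 to 331 CPM in WT. The part of this shift in the values of Mpeg1 and Lyz2 was not tested.

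Whether the K36M effect differed between tissues was tested as a difference of log2 fold changes. Between bone marrow and testes 5 of 10 genes differed by edgeR's quasi-likelihood F test, Benjamini-Hochberg adjusted, where 24.8% of 21257 genes did. Mpeg1 was -3.06 ± 0.51 (bone marrow minus testes, adjusted p = 0.00111) and F13a1 was -2.26 ± 0.29 (0.000265), so the F13a1 fall was deeper in bone marrow. Cx3cr1 was 3.60 ± 0.61 (adjusted p = 0.00108), higher with K36M in bone marrow and lower with K36M in testes. Lyz2 was -0.98 ± 0.34 (adjusted p = 0.0495), a call that 12 of its alternatives did not keep. Clec9a was -5.55 ± 1.08 (adjusted p = 0.00355), but with 5 counts in K36M testes and 3 in WT testes it could not be tested within testes and entered this fit through bone marrow. Its value therefore mainly restates the bone marrow fall, and the other 4 calls are among the 8 genes tested within testes. Ly86, Ms4a6c and Ccr2 did not pass, at 0.20 ± 0.71, -0.43 ± 0.50 and -0.82 ± 1.06.

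Between bone marrow and intestine 2 of 10 genes differed by edgeR's test, where 17.2% of genes did, Mpeg1 at -2.81 ± 0.62 (bone marrow minus intestine, adjusted p = 0.00672) and Lyz2 at -1.72 ± 0.43 (0.0127). Both calls were lost without K36M intestine mouse 1485 (adjusted p = 0.0507 and 0.0983), and that of Lyz2 also without the intestine of mouse WT.1476 (0.0515). Under limma-voom neither passed (adjusted p = 0.0758 and 0.0743), while F13a1 (0.00492), Clec9a (0.0331) and Xcr1 (0.0212) did. F13a1, Clec9a and Xcr1 had too few counts to be tested within intestine and entered this fit through other tissues. Their limma-voom calls therefore mainly restate the bone marrow falls. Between intestine and testes 2 of 8 differed, where 22.5% of genes did, Cx3cr1 at 4.51 ± 1.07 (intestine minus testes, edgeR adjusted p = 0.0146) and Ccr2 at 2.72 ± 0.87 (0.0459), on 14 and 12 counts in K36M intestine, against 5 and 5 in WT intestine. Both had too few counts to be tested within intestine and entered this fit through testes. With the mouse as a replicate block, Ccr2 no longer passed (2.75 ± 1.10, adjusted p = 0.14). Cx3cr1 no longer passed without K36M intestine mouse 1485 (2.49 ± 1.39, adjusted p = 0.242).

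Across the 18 libraries, the protein-coding genes whose log2 CPM followed each of the 10 most closely, of 16069 compared, were Kcnq5 and Tspan2 for both F13a1 (Pearson r = 0.994 and 0.991) and Lyz2 (0.990 and 0.988). Csf3r, the receptor of the granulocyte growth factor, was nearest to Ly86 (0.993), Celf2 to Mpeg1 (0.991), Ankrd44 to Ms4a6c (0.994) and Clec4b2 to Ccr2 (0.992). Polh and Msh6, genes of DNA repair, were nearest to Cx3cr1 (0.980 each). Tmem26 and Klrk1 were nearest to Clec9a (0.989 and 0.986), Nlrp3 and Pgr to Siglech (0.981 and 0.978) and Cd86 and Klra8 to Xcr1 (0.820 and 0.818). The libraries fall into 3 tissues, so these values mainly describe which genes share the bone marrow level, and they carry no test.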

How the data were processed

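The authors deposited raw counts of reads in genes. The submitters' processing notes name STAR, HTSeq and mm9, and their versions are not given in the sources used here. Libraries were made with the SMARTer v3 kit, per the labels' protocols. Whether counting used strand is not given, so overlapping and antisense genes cannot be told apart. Of all entries, 9.89% to 26.0% were reads in no feature, 15.3% to 29.1% were not uniquely aligned and 2.21% to 4.17% were ambiguous, and these 5 entries were left out. Symbols and exon lengths came by gene ID from GENCODE M21 on GRCm38, which named 32897 IDs.

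The 10 genes and the lists were chosen with earlier results of these data known. The rule for other names took the 2 most similar genes per member, the 3 list genes with the smallest adjusted p in K36M against WT bone marrow, and all partners. Each tissue was fitted on its 6 libraries in R 4.3.3 with edgeR 4.0.16 (TMM, filterByExpr, robust quasi-likelihood fit on 3 group means, 3 residual degrees of freedom), with Benjamini-Hochberg adjustment over all genes and a threshold of 0.05. The SE was derived from the F statistic. Contrasts with bone marrow used 18 libraries and 9 group means, and intestine against testes used 12 libraries. The scripts were tested on simulated data. Likeness used log2(CPM + 0.5). Alternatives were DESeq2 1.42.0, limma-voom 3.58.1, other scaling, filters, samples and leaving out each library. The replicates of every group were further apart than counting error gives (chi-square per degree of freedom 2.39 to 66.1). The mouse as a block was an alternative, since the labels give the same mice for intestine and testes. The deviations of the paired mice correlated at -0.03 in K36M, 0.08 in K9M and 0.03 in WT over 20253 genes. Some genes that the lists or the chromosome order would name are not reported here.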

Additional observations from a re-analysis of the deposited data

Results flagged for a closer look

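Each value here is a difference in the log2 fold change of K36M over WT between 2 tissues that passed edgeR's quasi-likelihood F test, Benjamini-Hochberg adjusted. Bone marrow minus testes gave -3.06 for Mpeg1, -2.26 for F13a1, -0.98 for Lyz2, 3.60 for Cx3cr1 and -5.55 for Clec9a. Bone marrow minus intestine gave -2.81 for Mpeg1 and -1.72 for Lyz2. Both of these calls were lost under limma-voom and without K36M intestine mouse 1485. Lyz2 counts in intestine came to 0.864% to 4.08% of Lyz1 counts, and how many came from Lyz1 transcripts was not tested. Intestine minus testes gave 2.72 for Ccr2 and 4.51 for Cx3cr1. Mpeg1 and Cx3cr1 passed within bone marrow and within testes with opposite signs. Clec9a in testes, and Ccr2 and Cx3cr1 in intestine, had too few counts to be tested within the tissue and entered these fits through the tissue where they are high, so those 3 values say little about the low tissue. Bone marrow came from other mice than the other tissues, so tissue, set of mice and sex cannot be told apart.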

How the results depend on the processing

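Counts of genes called held within 1.5 times under the alternatives run for K36M against WT and against K9M in bone marrow (9 each), for the K36M effect between bone marrow and testes (5), and for the WT tissue comparisons (10, 9 and 7). The 0 calls in K9M testes stayed 0 under every alternative run, and so did those in K9M intestine and in K36M against K9M intestine, except with the counts of Lyz1 and Lyz2 summed. That sum passed in K9M against WT (log2 2.32, adjusted p = 0.0157), K36M against K9M (-1.25, 0.00622) and K36M against WT intestine (1.06, 0.01). For bone marrow minus intestine limma-voom called 3 genes, none of them among the 2 called by edgeR. All 3 had too few counts to be tested within intestine. Leaving out each library in turn gave 0 to 2 calls in K9M against WT bone marrow, 0 to 1 in K36M against WT intestine, 3 to 6 in K36M against WT testes and 0 to 5 in K36M against K9M testes. It gave 0 to 4 for the K36M effect between bone marrow and intestine and 0 to 2 between intestine and testes. With no filter on low counts, 1 gene was called in K9M against WT bone marrow (Xcr1), 1 in K36M against WT intestine (Mpeg1) and 1 for intestine minus testes. With all 18 libraries in 1 fit, 1 was called in K36M against WT intestine and 3 in K36M against K9M testes. DESeq2 called 5 for bone marrow minus intestine and 1 for intestine minus testes, and the filter of 1 CPM in 2 libraries also left 1 there. With the mouse as a replicate block 1 gene, Cx3cr1, was called for intestine minus testes, and the block ended the call of Ccr2 for WT intestine against WT testes (adjusted p = 0.067) and changed no other call. Over single genes, 2056 repeats kept direction and call, 77 lost a call, 37 gained one, 32 changed the sign of a value that was not called, and no called value reversed. Apart from the cases with fewer libraries or other genes tested, the cause was not tested. With 2 libraries per group and few counts in intestine, a missed threshold does not show that levels were alike. In a fit without 1 library, the lone library of its group is assumed to vary like the other groups.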
